A study of Rattus norvegicus with 6 samples.

Results

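The rows described here are rows of the deposited expression tables that name several genes at once, so that these genes share a single locus and value. They were chosen by the comma in the row's gene name, and rows of different libraries were grouped where they held the identical set of names. Of 480621 rows in 6 tables, 5075 named several genes and 185217 named a single gene. The 5075 joined rows fell into 1746 name sets, and 428 of these were present in all 6 libraries. The tissue was labelled prefrontal cortex and came from male F344 rats aged 18 months, with 1 library from each rat. In the manipulated group, replicates 4, 5 and 6, rats had cranial osteopathic manipulation (a hands-on treatment of the skull) for 7 days under 1.5 to 3% isoflurane. Rats of the untreated group, replicates 1, 2 and 3, were anaesthetised but not manipulated. Tissue was a coronal section of 1 mm from the dorsal end of that cortex. The study asked whether gene expression in this tissue differs between manipulated and untreated aged rats. Values are FPKM, the fragments of a locus scaled for its length and for the library's mapped fragments.

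A transcript assembler builds a locus from reads that overlap or are linked by splicing, so genes whose reads meet become a single locus with a single value. Reads can bridge 2 genes when transcription runs past the end of an upstream gene into the next, when both genes share exons or a start, or when nearly identical copies exchange reads. A joined row need not show such reads, as 43 of the 428 sets present in all 6 libraries were listed at 0 FPKM in each. How those names came to share a row was not tested. Some gene pairs are known to be transcribed together in mammals. Cers1 and Gdf1 lie on a bicistronic mRNA, Septin5 transcripts can run on into Gp1bb, and Palm2 and Akap2 give joint transcripts.

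Sequences from RefSeq for the assembly GRCr8 show what lies at the starts of joined genes. Each window holds 250 bases before and 50 bases after a gene's start, on the gene's strand, and capitals mark AATAAA, the core polyadenylation signal, or TATAAA, the core of the TATA box. The window below serves both Cers1, a ceramide synthase gene, and Gdf1, a growth factor gene, whose listed starts are 0 bases apart (chr16:19146431-19146730, minus strand). It holds neither motif.
Cers1 and Gdf1: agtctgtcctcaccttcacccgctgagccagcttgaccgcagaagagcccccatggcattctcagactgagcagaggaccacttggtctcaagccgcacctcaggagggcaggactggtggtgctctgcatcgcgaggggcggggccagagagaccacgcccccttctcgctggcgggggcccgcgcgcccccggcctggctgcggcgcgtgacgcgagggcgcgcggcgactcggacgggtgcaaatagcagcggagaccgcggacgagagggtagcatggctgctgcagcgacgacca
The beta-tubulin genes Tubb2a (chr17:31001936-31002235, plus strand) and Tubb2b (chr17:30952836-30953135, plus strand) were joined in all 6 libraries as well. They are shown because their windows have separate starts and because their joined row was among the most abundant.
Tubb2a: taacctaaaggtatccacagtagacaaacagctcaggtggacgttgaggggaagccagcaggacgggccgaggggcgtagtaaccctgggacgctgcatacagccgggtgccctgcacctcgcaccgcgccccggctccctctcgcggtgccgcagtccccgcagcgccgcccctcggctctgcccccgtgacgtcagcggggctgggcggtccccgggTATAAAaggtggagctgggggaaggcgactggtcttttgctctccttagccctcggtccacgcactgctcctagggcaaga
Tubb2b: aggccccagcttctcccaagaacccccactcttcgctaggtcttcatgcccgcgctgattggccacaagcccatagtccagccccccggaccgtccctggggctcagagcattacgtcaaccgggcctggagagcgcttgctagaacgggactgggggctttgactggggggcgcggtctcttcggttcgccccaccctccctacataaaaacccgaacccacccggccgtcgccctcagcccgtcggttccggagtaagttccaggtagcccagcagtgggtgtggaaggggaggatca
A pair of 30-base stretches is shown for starts that follow an upstream gene closely on the same strand. Both were chosen because their windows hold AATAAA. The windows of Gpn2, Sap25 and Hdac3, which follow Gpatch3, Lrch4 and Fchsd1 on the same strand, hold no AATAAA on the gene's strand. Flot2 (chr10:63423972-63424001, plus strand) follows Dhrs13, and Ufsp1 (chr12:25044108-25044137, minus strand) follows Ache.
Flot2: caagccccctggAATAAAgcgagctgattg
Ufsp1: ctctgggccgccAATAAActgttacagcta
The AATAAA of these stretches begins 116 bases before the listed start of Flot2 and 229 bases before that of Ufsp1. On the gene's strand AATAAA was found in 12.4% of 33469 such windows and TATAAA in 8.80%. On either strand the shares were 21.6% and 14.2%. A match describes the letters of the window and no more. The window of Cers1 and Gdf1 had a GC content of 69.3%, that of Tubb2a 66.7% and that of Tubb2b 64.3%, against a median of 51.7% over all windows.

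The libraries differed in how much was assembled. Loci without any gene name numbered 83180, 51528 and 66414 in the untreated and 35559, 17102 and 36546 in the manipulated libraries, and the groups did not overlap. The number of fragments implied by the width of the FPKM intervals, which can be compared between libraries and is no read total, was 3.47e+07 to 3.86e+07 and 3.40e+07 to 4.29e+07. Cortical excitatory neuron markers were present in every library (7 of 7 at 1 FPKM or more in each), with a summed level of 98.1 to 145 FPKM in untreated and 70.5 to 110.7 FPKM in manipulated libraries. Markers of thalamic and hypothalamic neurons summed to 95.0 to 138.8 FPKM and 9.43 to 10.8 FPKM, with 7 and 3 of 7 at 1 FPKM or more in every library of the group. Striatal markers summed to 33.4 to 50.2 FPKM and 60.2 to 152 FPKM. Choroid plexus markers summed to 458 to 466 FPKM and 238 to 1235 FPKM, with Kcnj13 below 0.1 FPKM in untreated libraries. Astrocyte markers summed to 88.3 to 150.9 FPKM and 53.0 to 82.5 FPKM, without overlap. Markers of all neurons, oligodendrocytes and microglia overlapped between the groups. No marker gene lay in a joined row, and the part of these differences in the results was not tested. In bulk tissue, fewer cells of a type and less RNA per cell cannot be told apart.

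Joined rows were more numerous in untreated than in manipulated libraries. They numbered 950, 861 and 899 in untreated replicates 1, 2 and 3, and 808, 775 and 782 in manipulated replicates 4, 5 and 6. The groups did not overlap, at 903 ± 44.7 against 788 ± 17.4 rows (SD, n = 3). As a share of named rows they made up 2.72 to 3.01% and 2.43 to 2.54%. The order of the groups was the same as for unnamed loci, and the part of assembly extent in it was not tested. Rows naming 2 or more ordinary gene symbols, that is symbols other than clone, locus and small RNA names, numbered 311, 258 and 294 in untreated and 224, 219 and 224 in manipulated libraries. A library's joined rows took in 1660 to 2070 genes, of which 1.61 to 2.10% also had a row of their own there. Over the 6 libraries, 3254 of 30076 symbols were joined to another gene at least once.

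**Figure D1:**
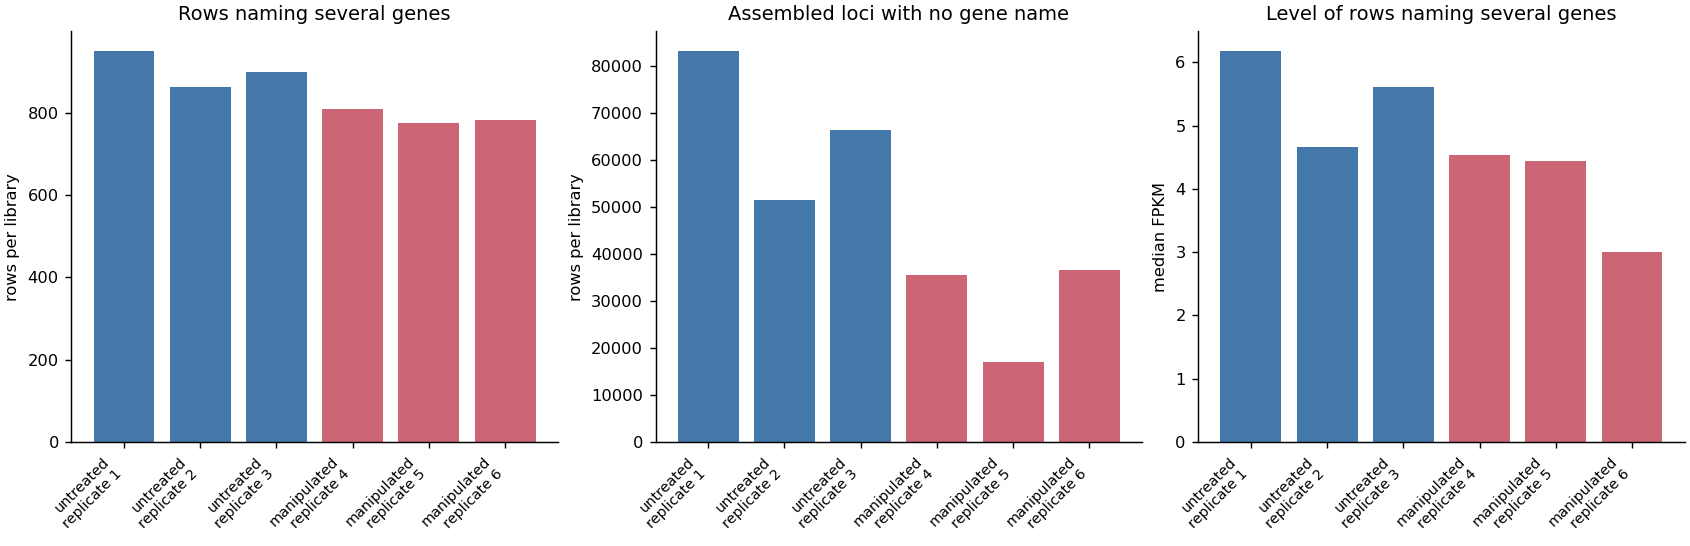
Bars give, for each library (untreated replicates 1 to 3 in blue, manipulated replicates 4 to 6 in red), the number of rows naming several genes, the number of assembled loci with no gene name, and the median FPKM of the rows naming several genes. Joined rows run from 861 to 950 in untreated and from 775 to 808 in manipulated libraries, and the median FPKM is lowest, at 3.00, in manipulated replicate 6.

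Joined rows had higher FPKM and longer spans than rows with a single name. Their median level was 6.18, 4.66 and 5.61 FPKM in untreated and 4.53, 4.45 and 3.00 FPKM in manipulated libraries. Rows with a single name had medians of 0.124 to 0.169 and 0.0929 to 0.112 FPKM. Among rows above 0, the medians were 5.69 to 7.37 and 3.72 to 5.34 FPKM for joined rows, and 1.90 to 2.43 and 1.39 to 2.02 FPKM for rows with a single name. Between 73.5 and 80.9% of joined rows reached 1 FPKM, against 33.8 to 39.5% of rows with a single name. The median span was 34.1 to 36.7 kb for joined rows and 5.84 to 5.94 kb for the others. Between 82 and 105 joined rows in a library were listed at 0. Most joined rows held 2 names, 832 of 950 in untreated replicate 1 and 695 of 775 in manipulated replicate 5.

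Sets fell mainly into those joined everywhere and those joined once. Of 1746 sets, 428 (24.5%) were joined in all 6 libraries and 752 (43.1%) in a single library, with 238, 133, 97 and 98 in 2, 3, 4 and 5 libraries. Untreated libraries alone held 566 sets and manipulated libraries alone 343. Sets found in 2 or 3 libraries of a single group numbered 115 for untreated and 42 for manipulated. Only 15 sets were joined in the 3 untreated and in no manipulated library, and 4 in the 3 manipulated and in no untreated library. These are counts of what the grouping rule itself used, and no test was made of them. A set also counts as absent where its names lay in a row with further names, or where only some were joined. For example, a set of clone names joined in the 3 manipulated libraries lay within larger rows in the 3 untreated libraries. Counted as pairs of genes, whatever else a row named, 767 of 3134 pairs shared a row in all 6 libraries, 34 in the 3 untreated alone and 2 in the 3 manipulated alone. Of 785 pairs of ordinary symbols, 113 shared a row in all 6 libraries.

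**Figure D2:**
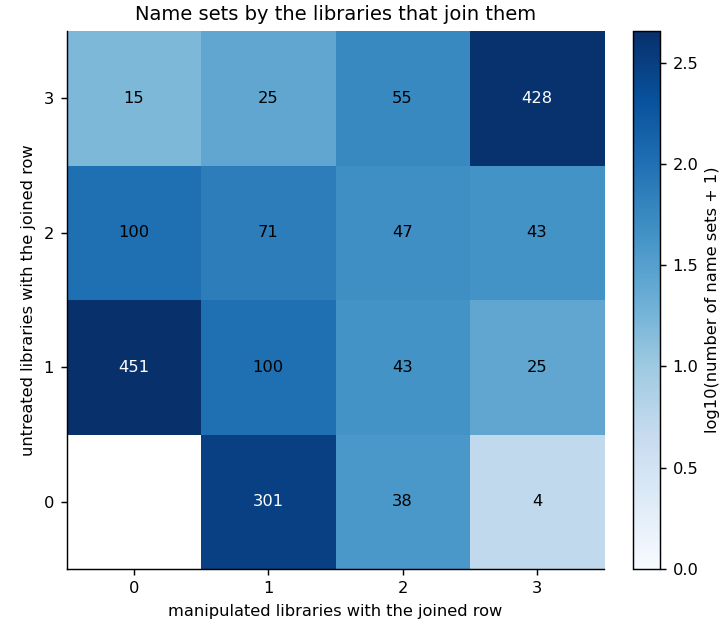
Each cell counts the name sets joined in a given number of manipulated libraries (x axis, 0 to 3) and of untreated libraries (y axis, 0 to 3), with colour on a log10 scale of the count plus 1. The corner of all 6 libraries holds 428 sets, single untreated libraries 451 and single manipulated libraries 301, while 15 and 4 sets are joined throughout 1 group and absent from the other.

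Sets missing from a single library often had no joined row there at all. Of the 98 sets joined in 5 libraries, 63 had no joined row of any of their names in the library that lacked them. In 32 the names lay in a row with further genes, and in 3 only some of the names were joined. The missing library was untreated replicate 1, 2 or 3 in 11, 10 and 22 sets and manipulated replicate 4, 5 or 6 in 22, 17 and 16 sets. No library accounted for most of them.

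The names that joined in all 6 libraries differed in kind from those that joined once. Of the 428 sets, 187 (43.7%) paired 1 ordinary symbol with clone or locus names, and 74 (17.3%) held 2 or more ordinary symbols. Another 83 sets held clone or locus names alone, 37 an ordinary symbol with a small RNA, and 47 a small RNA with no ordinary symbol. Among sets of a single library, 56.1% held 2 or more ordinary symbols. The spans differed by kind as well, with medians of 0.57 kb for clone or locus names alone, 0.215 kb for small RNAs with no ordinary symbol, 64.5 kb for an ordinary symbol with clone names and 32.0 kb for 2 or more ordinary symbols. Span was stable across libraries. It was identical in 213 of the 428 sets, within 10% in 368, and changed by over 1.5 times in 27. The sets named 867 genes and lay on many chromosomes, with 51 on chromosome 1, 39 on chromosome 10 and 37 on chromosome 7. Of the 428 sets, 43 were listed at 0 in all 6 libraries and a further 59 in some of them, and 323 had a mean of at least 1 FPKM.

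Pairs of ordinary symbols that shared a row lay on the same strand in nearly every case. Among 390 pairs that adjoin or overlap in RefSeq and have both start windows, 390 were on the same strand, including 55 of 55 joined in all 6 libraries. Over every pair with both windows, 521 of 524 were. In the same annotation 52.1% of 18983 neighbouring pairs of coding genes have the same strand, 24.0% have starts that face each other and 23.9% ends that face each other. A shared strand can come from how the assembler builds a locus, so the difference from 52.1% is not read as a trait of these genes. Of the 113 pairs joined in all 6 libraries, 62 were neighbours, 26 overlapped, 22 had coding genes between them and 3 were a single gene in RefSeq. Overlap was listed for 23.0% of these pairs and for 4.53% of the 419 matched pairs joined in a single library. Pairs with the same letters before the first digit of the symbol, such as Tuba1a and Tuba1b, made up 34.5% and 11.7%. The median distance between starts was 13.7 kb for 62 pairs joined in all 6 libraries, 21.9 kb for 157 pairs joined in 2 to 5, and 43.1 kb for 302 joined once. Start windows overlapped in 3 pairs, Cers1 with Gdf1 at 0 bases, Hyal3 with Naa80 at 71 bases and Snrpn with Snurf at 234 bases, and all 3 were joined in all 6 libraries. These comparisons describe pairs that share neighbourhoods and annotation, and none was tested.

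Where a pair was joined in some libraries and apart in others, the gap between the separate rows could be measured. Over 530 such sets of 2 ordinary symbols, 13 overlapped, and the others had a median gap of 9.01 kb (quartiles 1.31 and 38.6 kb). The gap was within 5 kb in 223 sets, and the longest was 291.5 kb. The joined row held about what the separate rows held together. Over 990 comparisons of a set within a group, each with joined and separate values that added up to at least 2 FPKM, the joined value differed from the sum of the separate values by a median of -0.07 on the log2(FPKM + 1) scale (quartiles -0.44 and 0.28). Of these comparisons 66.2% lay within 0.5. The larger gene made up a median of 85.3% of the sum, and over 90% in 42.5% of comparisons. These comparisons took in all kinds of name, clone and small RNA names included. Over the 567 comparisons of 2 ordinary symbols, the larger gene made up a median of 81.1%, and over 90% in 34.0%. A joined value can therefore stand mainly for a single member of the set.

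The most abundant sets of ordinary symbols joined in all 6 libraries held tubulin genes. Tuba1a and Tuba1b (chr7:140614752-140640953, Rnor_6.0), which encode alpha-tubulins of the microtubule, had 251.6, 181.7 and 238.2 FPKM in untreated and 167.2, 180.2 and 124.5 FPKM in manipulated libraries. All manipulated values lay below all untreated ones, with the closest values at 180.2 and 181.7. The limma log2 fold change was -0.51 (SE 0.30), with an adjusted p of 0.346. Tubb2a and Tubb2b (chr17:31441630-31498660, Rnor_6.0) had 135.8, 207.4 and 137.9 FPKM against 92.2, 98.4 and 71.1 FPKM. Untreated replicate 2 was highest there, and the groups did not overlap. The log2 fold change was -0.86 (SE 0.31), with an adjusted p of 0.324. In both sets the copies are close paralogs, so the split of reads between them is uncertain.

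The next sets by level were not tubulins. Man2b2, a lysosomal mannosidase gene, and Mrfap1 shared a row with a clone name at 110.5, 78.9 and 128.4 FPKM in untreated and 67.2, 82.9 and 47.0 FPKM in manipulated libraries, which overlapped. Gp1bb, a subunit of the platelet receptor for von Willebrand factor, and Septin5, a septin of presynaptic terminals, had 95.1, 61.9 and 99.9 against 71.6, 79.8 and 52.6 FPKM. Untreated replicate 2 lay within the manipulated range. The row of Ppp3r1, the regulatory subunit of calcineurin, and Wdr92 changed its span 2.15 times between libraries and had 61.1, 39.0 and 46.4 against 47.0, 76.1 and 25.3 FPKM. Its group means differed little, at 48.9 and 49.4 FPKM, and manipulated replicates were both the highest and the lowest. Ndufb6, a complex I subunit gene, and Topors, a ubiquitin and SUMO ligase gene, had 32.7, 29.7 and 42.2 against 24.2, 31.4 and 21.9 FPKM. Cyb5a, which encodes cytochrome b5, and Fbxo15, an F-box gene, had 27.2, 19.96 and 32.2 against 17.3, 29.3 and 12.3 FPKM. None of these sets passed limma, with adjusted p of 0.328 to 0.880.

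A single library decided the value of Prickle4 and Tomm6. Tomm6 encodes a subunit of the mitochondrial import channel, and Prickle4 belongs to a planar polarity gene family. The row had 10.1, 4.28 and 12.7 FPKM in untreated libraries and 2.98, 112.8 and 5.47 FPKM in manipulated libraries. Only manipulated replicate 5 was high, with a deposited interval of 99.6 to 126.0 FPKM. The log2 fold change was 0.62 (SE 1.06) with all libraries and -0.87 without manipulated replicate 5, with limma adjusted p of 0.688 and 0.325.

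**Figure D3:**
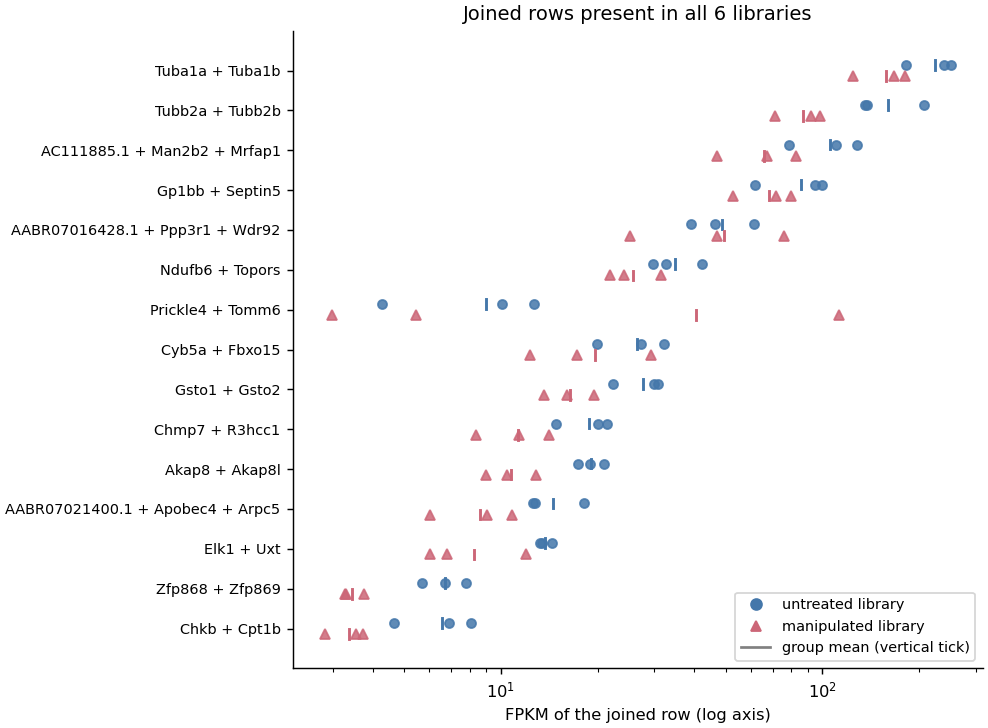
FPKM on a log axis of 15 named sets of ordinary symbols joined in all 6 libraries, with untreated libraries as blue circles, manipulated libraries as red triangles and vertical ticks at the group means. The 8 sets chosen as the largest decreases without overlap have blue circles to the right of red triangles by that choice, Tuba1a with Tuba1b is the only one of the other 7 without overlap, and Prickle4 with Tomm6 has 1 red triangle at 112.8 FPKM while the others are at or below 5.47.

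Several sets of 2 or more ordinary symbols had groups that did not overlap. On the deposited scale these were 21 of 59 tested sets, all with manipulated libraries lower, against 23.7% of all features. With median-ratio scaling they were 5 lower and 6 higher of 60 (8.33% and 10.0%), against 8.92% and 10.7% of all features. Zfp868 and Zfp869, a pair of zinc finger genes, had 6.69, 5.68 and 7.81 FPKM in untreated and 3.77, 3.31 and 3.29 FPKM in manipulated libraries. The log2 fold change was -0.79 (SE 0.21) and the limma adjusted p 0.274, the smallest among the sets of ordinary symbols named here. Akap8, which encodes a nuclear anchor of protein kinase A, and Akap8l had 19.0, 21.0 and 17.3 against 12.9, 8.97 and 10.4 FPKM. Chkb, a choline kinase that starts phosphatidylcholine synthesis, and Cpt1b, the muscle form of carnitine palmitoyltransferase, had 6.92, 4.66 and 8.10 against 3.56, 2.83 and 3.74 FPKM. The 3 manipulated values of each set lay below the lowest untreated value.

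Further sets had groups that did not overlap as well. Gsto1 and Gsto2, the omega-class glutathione transferases, had 30.7, 22.3 and 29.95 against 16.1, 19.4 and 13.7 FPKM. Elk1, a transcription factor of the immediate early response, and Uxt, a prefoldin-like cofactor, had 14.5, 13.2 and 13.4 against 12.0, 6.01 and 6.83 FPKM. Chmp7, an ESCRT-III gene of nuclear envelope repair, and R3hcc1 had 19.99, 14.9 and 21.4 against 11.4, 14.1 and 8.36 FPKM. Manipulated replicate 4 came close to the untreated range for Elk1 with Uxt, and replicate 5 for Chmp7 with R3hcc1. Arpc5, a subunit of the Arp2/3 complex that branches actin, and Apobec4 shared a row with a clone name at 18.1, 12.8 and 12.6 against 9.05, 10.8 and 6.03 FPKM. Over these 7 sets and the beta-tubulin set, log2 fold changes ran from -0.86 to -0.70, with limma adjusted p of 0.274 to 0.325. With median-ratio scaling between libraries they ran from -0.40 to -0.26.

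The fit of manipulated against untreated libraries took in 10980 features with a mean of at least 1 FPKM, 323 of them joined sets. Limma called 1 of the 323 sets at an adjusted p under 0.05, against 0.346% of all features. The called set joined the clone names AABR07005004.1 and AABR07005004.4 over 0.165 kb (chr1:174134747-174134911, Rnor_6.0). It had 4.09, 11.1 and 7.70 FPKM in untreated and 1.36, 0 and 0 FPKM in manipulated libraries. The log2 fold change was -2.61 (SE 0.41), with an adjusted p of 0.0425. Its deposited intervals reach down to 0 FPKM in each library, and up to 13.8 FPKM in untreated replicate 1 and 6.80 FPKM in manipulated replicate 4. It passed in 6 of 16 other settings, with adjusted p of 0.00278 to 0.334, and 10 settings ended the call, median-ratio scaling among them at 0.2003. Among the 6, keeping only sets with 1 row per library repeated the main fit, as all 428 sets had 1. The limits on span and on other rows of a gene only removed other sets, leaving 10953 and 10949 features. A pass in these settings adds little. Sets called numbered 4 without untreated replicate 2 (75 of 11021 features in all), and the set of clone names was not among them, at an adjusted p of 0.0882. They numbered 2 without manipulated replicate 4 (54 of 10993 features) and 0 without untreated replicate 3 (46 of 10835 features).

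The median shift of joined sets was close to that of all features. The median log2 fold change was -0.36 over the 323 sets and -0.36 over all features, and 84.5% of sets and 86.9% of features lay below 0. An unadjusted p under 0.05 was found for 47 sets that were lower and 10 that were higher, or 17.6% of sets, against 15.1% of all features (13.6% lower and 1.51% higher). Groups did not overlap in 77 sets that were lower and 5 that were higher, or 23.8% and 1.55% of sets, against 23.7% and 1.09% of all features. Both shares lay near those of all features. With median-ratio scaling the median was 0.02 for sets and 0.01 for all features. The unadjusted p was then under 0.05 for 16 lower and 29 higher sets, or 13.98% of sets, against 11.19% of all features. With this scaling, groups did not overlap in 7.14% (lower) and 11.2% (higher) of sets, against 8.92% and 10.7% of features. The changes above are on the deposited scale, where the median of all features was -0.36.

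**Figure D4:**
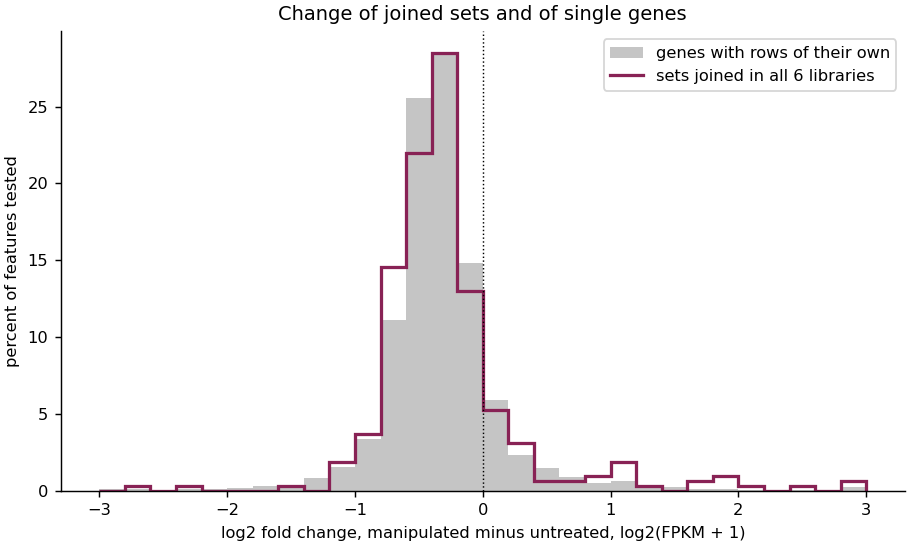
Histogram of limma log2 fold changes, manipulated minus untreated on the log2(FPKM + 1) scale, in bins of 0.2, as a percent of the genes with rows of their own (grey) and of the 323 sets joined in all 6 libraries (line), with values beyond 3 on either side put in the last bins. Both distributions peak below 0, with medians of -0.36.

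The kinds of joined set differed little in their median as deposited, apart from small RNAs. Of 59 tested sets with 2 or more ordinary symbols, 55 lay below 0, with a median of -0.46, and groups did not overlap in 35.6%, all of them lower, against 23.7% of all features. With median-ratio scaling 34 of 60 such sets lay below 0, the median was -0.04, and groups did not overlap in 8.33% lower and 10.0% higher. Sets of an ordinary symbol with clone or locus names had a median of -0.36 over 155 sets. The 28 sets that held a small RNA and no ordinary symbol had a median of -0.07, which became 0.31 with median-ratio scaling, and groups then did not overlap in 8 sets (28.6%), each higher in manipulated libraries, against 10.7% of all features higher and 8.92% lower. Among all 5 sets that were higher without overlap as deposited, none held 2 or more ordinary symbols.

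Rows of mixed names included one with a gene of mitochondrial quality control, chosen after its values were seen. Pink1, a kinase that marks damaged mitochondria, shared a row with the clone name AABR07050212.1. The row was listed at 0, 36.4 and 0 FPKM in untreated and at 34.8, 42.4 and 30.5 FPKM in manipulated libraries. Untreated replicate 2 lay inside the manipulated range, and only untreated replicates 1 and 3 were listed at 0. The limma adjusted p was 0.316.

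Some sets joined in the 3 untreated libraries alone could be followed as separate genes in the manipulated ones. Hdac3, a histone deacetylase, and Fchsd1, an F-BAR and SH3 domain gene (chr18:31073058-31109025, Rnor_6.0), shared a row at 10.2, 6.71 and 11.7 FPKM in untreated libraries. In manipulated libraries Hdac3 stood alone at 8.24, 7.24 and 6.77 FPKM, and Fchsd1 was listed at 0, 0 and 0.294 FPKM. The rows then lay 1.31 kb apart. The values of Hdac3 alone lay within the range of the joined values. Joined and separate values of such sets come from different groups, so effects of joining and of group cannot be told apart. Fem1a, a ubiquitin ligase adaptor gene, and Uhrf1, a factor of maintenance DNA methylation, had 5.06, 3.99 and 4.96 FPKM joined. Apart, Fem1a had 4.66, 4.41 and 4.40 FPKM and Uhrf1 0.730, 0.573 and 1.37 FPKM, with 38.4 kb between the rows. Here too the gene of higher level accounted for most of the sum.

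Uckl1, a uridine-cytidine kinase-like gene, and Zfp512b, a zinc finger gene, were closer to each other in level. Joined they had 9.63, 7.14 and 4.55 FPKM, while apart Uckl1 had 3.28, 2.67 and 2.89 FPKM and Zfp512b 3.09, 2.44 and 2.04 FPKM. Their separate rows were 0.114 kb apart. Gpatch3 and Gpn2, a GTPase gene, had 3.37, 2.10 and 3.18 FPKM joined, with 0.807, 0.945 and 0.485 FPKM for Gpatch3 and 2.61, 1.20 and 1.64 FPKM for Gpn2 apart. Lrch4 and Sap25, a Sin3 corepressor subunit gene, had 3.15, 1.86 and 2.65 FPKM joined, with 1.29, 1.84 and 2.95 FPKM for Lrch4 and 0.567, 0.257 and 0.628 FPKM for Sap25 apart. Intervals for Lrch4 reached 0 in untreated replicate 2, joined, and in manipulated replicate 6, alone. The summed separate values of these 3 pairs lay within or near the range of the joined values.

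Gpt and Ppp1r16a were missing as a set from the manipulated libraries in different ways. Gpt encodes alanine aminotransferase and Ppp1r16a a regulator of protein phosphatase 1. Their joined row had 9.99, 7.47 and 10.8 FPKM in untreated libraries. In manipulated replicate 4 Gpt was joined to Mfsd3 at 5.19 FPKM, with Ppp1r16a alone at 4.15 FPKM and a deposited interval from 0 to 14.2 FPKM. In manipulated replicate 5 both genes were joined to Mroh1 at 12.8 FPKM. In manipulated replicate 6 they stood apart at 2.88 and 3.46 FPKM.

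The reverse pattern was rarer. Flot2, a scaffold protein of membrane microdomains, and Dhrs13, a dehydrogenase gene (chr10:65304902-65334500, Rnor_6.0), shared a row in the 3 manipulated libraries at 8.08, 8.58 and 5.63 FPKM. In untreated replicates 2 and 3 Flot2 alone had 7.32 and 9.26 FPKM and Dhrs13 1.75 and 1.94 FPKM, and in untreated replicate 1 both were listed at 0, which can be a failed estimate. The separate rows lay 0.087 kb apart in Rnor_6.0. Slc2a3, the neuronal glucose transporter, joined the locus LOC100909595 at 12.7, 13.1 and 7.93 FPKM in manipulated libraries. In untreated libraries it stood alone at 7.40, 8.73 and 6.79 FPKM, with the locus at 8.70, 4.14 and 5.35 FPKM and 120.6 kb between them. Slc2a3 was named after its values were seen. A joined value covers both names, so it is not set against either separate value alone, and no direction is read from it.

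**Figure D5:**
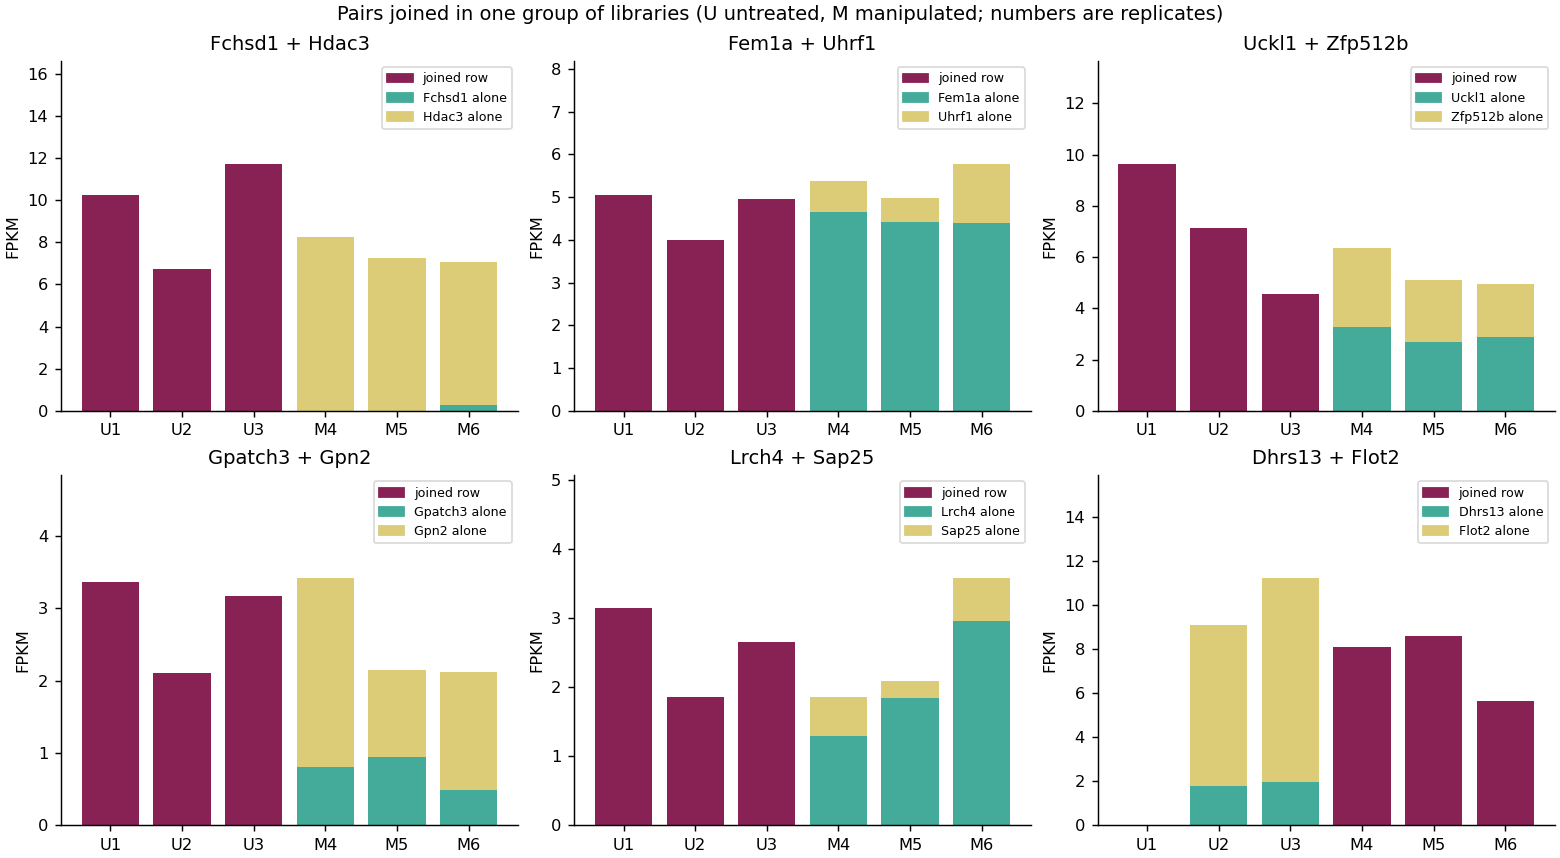
Stacked bars give FPKM in each library (U1 to U3 untreated, M4 to M6 manipulated) for 6 pairs, as the joined row where the pair shared a row and as the separate genes where it did not. Fchsd1 with Hdac3 is joined in U1 to U3 and nearly all Hdac3 in M4 to M6, while Dhrs13 with Flot2 is joined in M4 to M6 and listed at 0 in U1, which can be a failed estimate.

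These group-specific counts depended on single libraries, as fewer libraries make a set easier to find throughout a group. The 15 sets of untreated libraries alone became 44, 56 and 45 without untreated replicate 1, 2 or 3, and 29 without manipulated replicate 4. The 4 sets of manipulated libraries alone became 10, 14 and 13 without untreated replicate 1, 2 or 3 and 15, 17 and 18 without manipulated replicate 4, 5 or 6.

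Of 30 genes of cholinergic transmission, the pathway in the study's title, 3 lay in a joined row in some library. Ache, the enzyme that degrades acetylcholine, shared a row with Ufsp1, a UFM1-specific protease gene, at 11.1, 10.5 and 11.1 FPKM in untreated replicates and 8.88 and 7.37 FPKM in replicates 4 and 5 of the manipulated group (chr12:22470896-22478807, Rnor_6.0). In manipulated replicate 6 the row also took in Ephb4, an ephrin receptor gene, and had 6.24 FPKM. Every manipulated value lay below every untreated one, which also held for 23.7% of all features tested. The value of manipulated replicate 6 covers 3 genes, so the set entered no test. Chrm3, a muscarinic receptor gene, was joined to Zmynd11, a chromatin reader gene, in untreated replicate 1 alone, at 21.6 FPKM with a deposited interval from 0 to 60.03 FPKM. Chrnb1, the beta subunit of the muscle nicotinic receptor, was joined to Fgf11 in manipulated replicates 4 and 6, at 1.65 and 0.865 FPKM. The other 27 genes had no joined row in any library.

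The rows with the most names lay on chromosome 6, in a cluster of clone and small RNA names that in some libraries includes Mir127, Mir431 and Mir433, microRNAs of the imprinted Dlk1-Dio3 region. They held 24, 31 and 35 names in untreated and 23, 24 and 23 names in manipulated libraries, and 12 names were common to all 6. The extent differed, at 27.7, 89.4 and 92.4 kb in untreated and 27.7, 27.6 and 80.8 kb in manipulated libraries. MicroRNA names were in the rows of untreated replicates 2 and 3 and manipulated replicate 6 only. The row of untreated replicate 1, which names no microRNA, was listed at 279903 FPKM, with a deposited interval of 272653 to 287153 FPKM. No other library came near this level, and whether it is an estimation error was not tested. The row was listed at 24.8 FPKM in manipulated replicate 5, with an interval from 0 to 135.6 FPKM, and at 0 in the other 4 libraries. No 2 of these rows had the same names, so none entered the fit.

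Among sets joined in 3 or more libraries, the most names belonged to gene families in clusters. Mup4 and Mup5, which encode major urinary proteins of liver, shared a row of 11 names over 658 kb in 5 libraries, at 0 to 0.670 FPKM. Genes of the RT1-CE group, class I molecules of the rat major histocompatibility complex, shared a row of 7 names over 304.9 kb (chr20:4638483-4943564, Rnor_6.0). It had 18.2, 18.3 and 17.0 FPKM in untreated and 13.1, 10.7 and 10.7 FPKM in manipulated libraries, without overlap, at a limma adjusted p of 0.325. Near-identical copies make the source of these reads uncertain. A row of 6 names held Cntd1, Ramp2, a partner of the calcitonin receptor-like receptor, Vps25, an ESCRT-II gene, and Wnk4, a kinase of ion transport. It had 20.2, 22.1 and 30.4 against 17.4, 23.7 and 12.6 FPKM. A neighbouring row joined Aoc3, an amine oxidase gene, G6pc, the glucose-6-phosphatase gene of liver, and Psme3, a proteasome activator gene, at 24.2, 18.8 and 23.1 against 15.6, 20.1 and 14.02 FPKM. The row of Rpl13a, a ribosomal protein gene, with the cytokine gene Flt3lg and the host gene's small nucleolar RNAs had 130.2, 94.3 and 169.0 FPKM in untreated replicates and 77.3 and 63.5 FPKM in replicates 4 and 6 of the manipulated group, with deposited intervals that reached 0 in both manipulated libraries.

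The longest joined row of any kind paired Nrxn3, a presynaptic adhesion gene, with a clone name over 1937 kb, and was named after its values were seen. It had 16.2, 8.44 and 13.5 FPKM in untreated and 11.0, 8.33 and 6.66 FPKM in manipulated libraries. Among sets of 2 or more ordinary symbols in at least 3 libraries, Foxp1, a transcription factor of projection neurons, and Eif4e3, a cap-binding protein gene, spanned 753 kb in 5 libraries. They had 7.37, 5.87 and 8.72 FPKM in untreated replicates and 10.2 and 10.4 FPKM in replicates 4 and 5 of the manipulated group. The deposited interval of replicate 5 ran from 0 to 57.0 FPKM, so no direction is read from it. Akap2 and Palm2 shared a row in all 6 libraries, with a span of 336.0 to 599.1 kb and a median of 468 kb, at 17.1, 11.9 and 13.1 against 9.27, 11.3 and 6.45 FPKM. Limma gave a change of -0.60 (SE 0.28, log2 scale) and an adjusted p of 0.325. Ly49i4 and Ly49s4, natural killer cell receptor genes, were joined over 430.5 kb and listed at 0 in all 6 libraries. Lrrc69 and Slc26a7, an anion exchanger gene, were joined over 331.3 kb at 0.0214 to 0.0915 FPKM. Names were thus merged in all 6 libraries at very low levels too.

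Other sets joined in all 6 libraries hold genes known to share transcripts, and they were chosen after their values were seen. Cers1 and Gdf1, whose shared window is printed above, had 14.03, 7.86 and 11.9 FPKM in untreated and 9.03, 11.2 and 7.74 FPKM in manipulated libraries, with a limma adjusted p of 0.583. Lepr, the leptin receptor gene, and Leprot, which share a promoter, had 7.80, 4.86 and 6.69 against 4.65, 4.89 and 3.03 FPKM. Ak6 and Taf9, a nuclear kinase and a transcription factor subunit with exons in common, had 18.4, 14.4 and 24.3 against 14.02, 15.3 and 9.24 FPKM. The groups overlapped in each of the 3 sets.

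MicroRNA genes were named in 44 of the sets joined in all 6 libraries. These sets named 46 microRNA genes, 36 of which had a mature sequence in the RefSeq table, and the 53 mature sequences had 53 distinct seeds. In 31 sets the microRNA shared the row with an ordinary gene, and 29 of these had a lower mean in manipulated libraries, where 86.9% of all features tested had a log2 fold change below 0. Of the 30 tested sets of 1 ordinary symbol with a small RNA, 30 lay below 0 as deposited and 15 with median-ratio scaling. Such a row's value covers the host gene and cannot be read as the microRNA. Gria2, an AMPA receptor subunit gene, with Mir2985 had 31.3, 22.6 and 24.8 FPKM in untreated and 27.3, 31.2 and 16.4 FPKM in manipulated libraries. Srrm2, a spliceosome protein gene, with Mir5125 had 36.7, 27.0 and 26.5 against 23.7, 22.5 and 18.4 FPKM, without overlap and with a limma adjusted p of 0.352. Both were chosen after their values were seen.

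MicroRNAs joined to a small RNA of another class had higher means in manipulated libraries in 2 sets, also chosen after their values were seen. Mir1843b shared a row of 0.140 kb with Scarna3a, a small Cajal body RNA that guides RNA modification, at 78.3, 86.1 and 43.1 FPKM in untreated and 162, 126 and 104 FPKM in manipulated libraries. The groups did not overlap, and limma gave 0.94 (SE 0.36) on the log2 scale, at an adjusted p of 0.325. Mir1949 shared a row of 0.153 kb with SNORA74, a small nucleolar RNA, at 4.24, 15.8 and 0 FPKM against 53.4, 20.9 and 10.2 FPKM, with overlap. Their mature sequences are shown because these rows held no host gene, with the seed, bases 2 to 8, in capitals.
rno-miR-1843b-5p: aUGGAGGUcucugucugacuuag
rno-miR-1843b-3p: uCUGAUCGuuccccuccauac
rno-miR-1949: uAUACCAGgaugucagcauaguu
The 3 seeds differ from each other. The FPKM of these rows counts precursor and neighbouring small RNA together, in libraries whose size selection is not given in the sources used here.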

How the data were processed

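The authors' deposited tables hold FPKM for each gene-level locus, with the bounds of an interval and a status, per the file headers. Reads were aligned with STAR 2.7.3a and assembled with Cufflinks on Rnor_6.0, per the submitters' processing notes, while the sources used here do not give strandedness, RNA selection or read totals. Because assembly was made in each library, a gene can have a row of its own in 1 library and share a row in another, and its fragments then cannot be separated.

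Joined rows were grouped by identical names. Starts count from 0 in the tables (300 of 319 microRNA hairpin rows have the RefSeq hairpin's length as end minus start) and are given from 1. Members and lists were chosen with earlier results of these data known. The fit used log2(FPKM + 1) in limma 3.58.1 (R 4.3.3) with a mean-variance trend, two-sided, over 10980 features with a mean of at least 1 FPKM: single symbols that shared no row in any library and sets joined in all 6. P-values were adjusted by Benjamini-Hochberg over all features, with a threshold of 0.05. A fold change on this scale understates that of low rows. Tested on simulated data for manipulated minus untreated over 10980 features, 12.2% of changes of 1 and 74.0% of changes of 2 (log2) were recovered, with a mean of 4.4 false calls in 5 simulations.

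Depth was judged from how wide the deposited intervals were at unnamed loci of 400 to 800 bases, and no counts were available for an exact limit. RefSeq GRCr8 supplied names, strand, neighbours and sequences, with 1342 of 1350 ordinary symbols matched. Its coordinates were never mixed with those of Rnor_6.0, and no Rnor_6.0 genome was used here. Sets named in the text hold 2 or more ordinary symbols. They were those called by limma (any name), the 8 highest, the 8 largest increases and decreases without overlap, the 8 highest joined throughout a single group, the 5 with the most names and the 5 longest among sets in 3 or more libraries, and those with a cholinergic or marker gene. Others are marked as chosen after their values were seen. Alternatives covered the pseudocount, the filter, scaling, the variance model, weights per library, the sets kept, the unit counted and each library left out. One, keeping only features above 0 in all 6 libraries, was added after the data were seen. Other steps ran in Python 3.11.15 with numpy 2.4.6 and pandas 2.3.3, and plots in matplotlib 3.10.9.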

Additional observations from a re-analysis of the deposited data

How the results depend on the processing

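The single call among joined sets was lost, leaving 0 sets, with a pseudocount of 0.1 or 0.01 and with no filter on low values. The same held with median-ratio scaling and with no trend. With only sets of 2 or more ordinary symbols 0 sets passed, but the set of clone names was left out of that fit. It was also left out at a mean of at least 5 FPKM, where 1 other set passed, and among features above 0 in all 6 libraries. Under weights per library 35 of 323 sets passed, among 983 of 10980 features, and 9 of 294 did over features above 0 in all 6 libraries, among 433 of 10199. Leaving out each library gave 0 to 4 calls. The median log2 fold change of the sets was 0.023 with median-ratio scaling and -0.48 to -0.21 without single libraries. Among 20 named sets in the fit and 374 values under alternatives, 350 kept direction and side of the threshold. The alternative of sets with 1 row per library repeated the main fit, so its values were the same by construction. Alternatives that only changed which features were kept, or only the variance model, leave each set's fold change as it was. Direction was therefore fixed in advance under them, and only the side of the threshold could move. With weights per library 4 further sets passed besides the set of clone names, Chkb with Cpt1b, Chmp7 with R3hcc1, Gsto1 with Gsto2 and Zfp868 with Zfp869, and the 10 values that lost the call were all of the set of clone names. Signs turned in 10 values. With median-ratio scaling they were 0.36 for Ppp3r1 with Wdr92, 0.0025 for the row of Cntd1, 0.046 for that of Aoc3, 0.14 for Gp1bb with Septin5 and 0.032 for Ndufb6 with Topors. Without single libraries Ppp3r1 with Wdr92 ran from -0.47 to 0.31 and Prickle4 with Tomm6 from -0.87 to 1.55. Ppp3r1 with Wdr92 also turned with weights per library, at 0.026, without untreated replicate 1, at 0.077, and without manipulated replicate 6, at 0.31. Prickle4 with Tomm6 turned with weights per library, at -0.67, and without manipulated replicate 5, at -0.87. The cause was not tested. Sets joined in all 6 libraries numbered 767 counted as gene pairs, 272 for rows at 1 FPKM or more and 81 for ordinary symbols alone, and 438 to 450 without single libraries. Those in the 3 untreated libraries alone numbered 34 as gene pairs, 8 for ordinary symbols alone and 20 to 56 without single libraries. In the 3 manipulated libraries alone, the numbers were 2, 1 and 10 to 18. Joined rows naming 2 or more ordinary symbols averaged 287.7 in untreated and 222.3 in manipulated libraries. No paired analysis was possible because the replicate numbers in the labels differ between the groups. The tables hold no counts, so low rows, many of them at 0, could be judged only by the deposited intervals.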
